A study of Homo sapiens with 10 samples.

Results

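Cells hold on to the matrix around them through focal adhesions, and 4 genes of this machinery were followed across all arrays: VCL, FN1, TNC and PAK2. They were chosen by gene symbol, out of 14884 genes with a symbol, because their signals were high in cells given the bEVs of L. rhamnosus. Their differences from the controls are therefore given as a description, with no p. The cells were HEK293T, a line from human embryonic kidney that expresses the large T antigen of SV40, and they were exposed for 6 h to bacterial extracellular vesicles (bEVs) of L. acidophilus, L. fermentum, L. paracasei, L. plantarum, L. rhamnosus, L. salivarius, Lc. lactis or S. thermophilus. Each of the 8 bEVs was profiled on 1 whole-transcript Affymetrix array (Human Gene 2.0 ST), and 2 arrays came from control cells, control 1 and control 2, for 10 arrays in all. Per the methods, triplicate RNA was pooled into 1 composite sample, which is not said separately of the controls. The spread between cultures treated with the same bEV is therefore not contained in the values. The dose was the maximum tolerated dose of each bEV, highest for L. paracasei and L. rhamnosus and lowest for L. plantarum and L. salivarius, so strain and dose cannot be told apart. The cell line field reads HEK293T for all 10 samples, but the titles of 7 bEV samples read HEK294T to HEK297T, and a treatment field common to all samples names Pk2 in place of bEVs. The groups used here follow the strain that each sample's own label names. No condition but the control has more than 1 array, and the sources neither say that the controls were separate cultures nor tie a bEV array to 1 of them.

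In a focal adhesion, integrin receptors bind matrix proteins outside the cell and a plaque of linker proteins inside it, which in turn holds actin filaments. FN1 encodes fibronectin, a matrix glycoprotein that integrins bind and assemble into fibrils. TNC encodes tenascin-C, a matrix glycoprotein found in developing and healing tissue that can weaken the adhesion of cells to fibronectin. VCL encodes vinculin, a plaque protein that binds talin and actin and strengthens the link under force. PAK2 encodes a serine/threonine kinase that is activated by the GTPases Rac and Cdc42 and acts on the actin cytoskeleton and on the turnover of adhesions.

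The stretch of 250 bases just upstream of each gene's start (RefSeq, GRCh38.p14) is shown to let the 4 genes be compared at the sequence level, since their signals were high on the same array. It lies at chr10:73997866-73998115 on the plus strand for VCL, at chr2:215436069-215436318 on the minus strand for FN1, at chr9:115118158-115118407 on the minus strand for TNC, and at chr3:196739607-196739856 on the plus strand for PAK2. Each is written 5′ to 3′ on the strand of the gene, and capitals mark matches, on either strand, to the GC box (GGGCGG), the cAMP response element (TGACGTCA), the TEAD site (GGAATG) and the CCAAT box (CCAAT). Overlapping GC boxes run together.
VCL: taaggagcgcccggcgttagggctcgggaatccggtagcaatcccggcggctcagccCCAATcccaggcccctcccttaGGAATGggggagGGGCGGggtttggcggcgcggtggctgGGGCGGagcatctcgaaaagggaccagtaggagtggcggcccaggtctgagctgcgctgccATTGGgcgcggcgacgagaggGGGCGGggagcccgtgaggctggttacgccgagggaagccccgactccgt
FN1: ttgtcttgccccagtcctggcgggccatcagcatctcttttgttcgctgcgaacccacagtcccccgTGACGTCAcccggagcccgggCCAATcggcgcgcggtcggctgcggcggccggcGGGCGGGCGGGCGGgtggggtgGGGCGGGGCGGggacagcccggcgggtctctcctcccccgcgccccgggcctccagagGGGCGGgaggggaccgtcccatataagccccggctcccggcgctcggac
TNC: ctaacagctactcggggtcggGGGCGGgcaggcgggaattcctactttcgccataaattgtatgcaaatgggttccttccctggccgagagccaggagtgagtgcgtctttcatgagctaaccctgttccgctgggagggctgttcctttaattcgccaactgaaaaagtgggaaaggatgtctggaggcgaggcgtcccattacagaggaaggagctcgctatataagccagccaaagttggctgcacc
PAK2: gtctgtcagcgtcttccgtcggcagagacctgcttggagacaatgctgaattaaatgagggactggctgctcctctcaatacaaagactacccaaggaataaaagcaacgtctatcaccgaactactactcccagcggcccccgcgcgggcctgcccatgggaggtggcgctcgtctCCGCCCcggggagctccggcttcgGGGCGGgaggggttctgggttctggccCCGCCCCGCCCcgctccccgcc

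The GC box was the only searched motif present upstream of all 4 genes, with 3 matches for VCL, 6 for FN1, 1 for TNC and 4 for PAK2. It is held by 42.3% of the 27305 RefSeq promoters of the same length. The cAMP response element was matched only upstream of FN1 (1.77% of all promoters), and the TEAD site only upstream of VCL (11.9%). VCL had 2 CCAAT boxes and FN1 had 1 (33.0% of all promoters). The AP-1 site (TGANTCA, 6.6% of all promoters) and the CArG box (1.14%) were matched in none of these 4 stretches. The GC content was 70.4% for VCL, 76.4% for FN1, 54.8% for TNC and 64.4% for PAK2, beside a median of 58.0% over all promoters. The matches describe letters only, and no binding was measured.

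All values are log2 signals, so a difference of 0.58 is 1.5-fold, the cutoff that the methods use for differentially expressed genes. Each gene is read by 1 probe set (16706200 for VCL, 16908037 for FN1, 17097661 for TNC and 16950017 for PAK2), and the signals of different probe sets are not comparable with each other. The medians of the 10 arrays over all probe sets lay between 3.29 and 3.33. Over all genes, the controls were a median of 0.17 apart, and 5.44% of genes were 1.5-fold or more apart between them. Of 10 markers of HEK293T cells, 5 were analysed and 3 had a signal at or above the median of all genes, 4.63. The mean over these markers was 6.27 to 6.35 on the controls and 6.12 to 6.36 on the bEV arrays. Of the fibroblast markers 3 of 10 were analysed (DCN, LUM and THY1) and 0 reached the median signal. Their mean was 2.83 on both controls and 2.62 to 2.92 on the bEV arrays. Of the leukocyte markers 4 of 6 were analysed and 1 reached the median signal (CD68, at 5.09). Of the endothelial markers 3 of 4 were analysed and 0 reached it. In bulk RNA, a small change in every cell and a large change in some cells cannot be told apart.

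VCL, the linker of the plaque, had the most even shift of the 4 genes: every bEV array lay above both controls. Its signal was 8.78 on control 1 and 8.92 on control 2. It was 9.44 with the bEVs of L. rhamnosus, 9.37 with those of S. thermophilus and L. paracasei, 9.36 with L. plantarum, 9.31 with L. fermentum, 9.23 with L. salivarius, and 9.18 with L. acidophilus and Lc. lactis. The groups did not overlap. The 8 bEV arrays averaged 9.30 ± 0.10 (SD, n = 8) and the controls 8.85 ± 0.10 (SD, n = 2), a difference of 0.46 or 1.37-fold. The bEV arrays spanned 0.25 from lowest to highest, and no step between neighbours in their order exceeded the gap of 0.14 between the controls. Over all genes, 5.11% had all 8 bEV arrays above both controls and 4.07% had all 8 below. In mean difference VCL stood at rank 171 from the top of 14884 genes, where the percentiles 5 and 95 of all genes were −0.32 and 0.32.

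**Figure D1:**
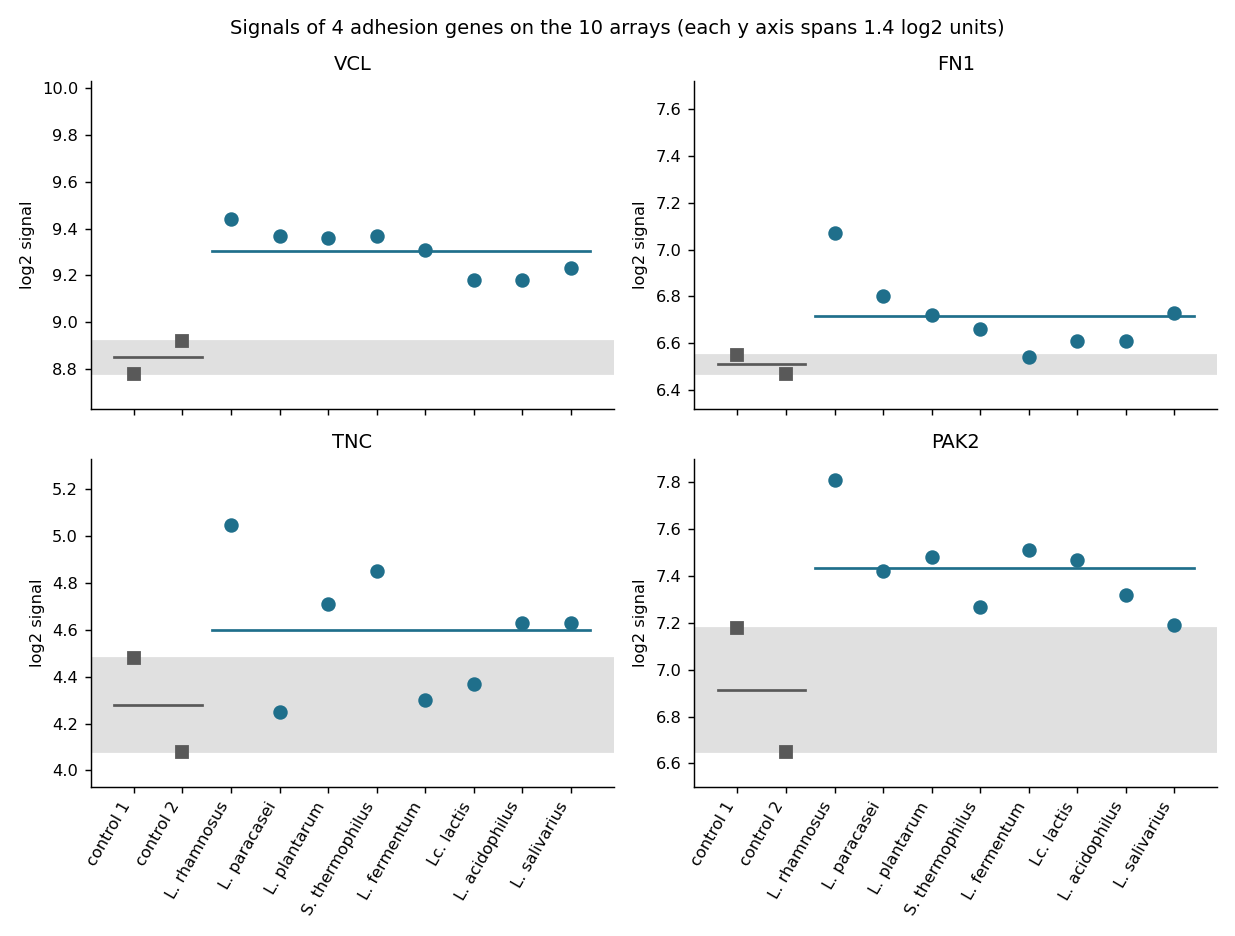
Log2 signal (y axis) of VCL, FN1, TNC and PAK2 on each array (x axis). Squares are the controls, circles are the bEV arrays, lines are group means, and the grey band spans both controls. All bEV arrays lie above the band for VCL and PAK2, 7 of 8 for FN1 and 5 of 8 for TNC, and the L. rhamnosus array is the highest in each panel.

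PAK2, the kinase, had a larger mean difference than VCL but a far wider gap between its controls. Its signal was 7.18 on control 1 and 6.65 on control 2. It was 7.81 with L. rhamnosus, 7.51 with L. fermentum, 7.48 with L. plantarum, 7.47 with Lc. lactis, 7.42 with L. paracasei, 7.32 with L. acidophilus, 7.27 with S. thermophilus and 7.19 with L. salivarius. All bEV arrays lay above both controls, but L. salivarius was only 0.01 above control 1. The bEV arrays averaged 7.43 ± 0.19 (SD, n = 8) and the controls 6.91 ± 0.38 (SD, n = 2), a difference of 0.52 or 1.43-fold, which was rank 88 among all genes. The controls were 0.53 apart, as wide a gap as the difference itself, and 92.7% of genes had a gap no wider. Measured from control 1 alone, the mean difference was 0.25, and from control 2 alone it was 0.79.

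FN1, the fibronectin gene, was highest on the L. rhamnosus array, the one for which the genes were picked. Its signal was 6.55 on control 1 and 6.47 on control 2. It was 7.07 with L. rhamnosus, 6.80 with L. paracasei, 6.73 with L. salivarius, 6.72 with L. plantarum, 6.66 with S. thermophilus, 6.61 with L. acidophilus and Lc. lactis, and 6.54 with L. fermentum. All but L. fermentum, which lay between the controls, were above both. The mean over the bEV arrays was 6.72 ± 0.17 (SD, n = 8) against 6.51 ± 0.06 (SD, n = 2), a difference of 0.20 or 1.15-fold. The step of 0.28 from L. rhamnosus down to L. paracasei was the only one of the 7 between neighbours that exceeded the control gap of 0.08. FN1 had the tightest controls of the 4 genes (24.4% of genes had a gap no wider) and the smallest mean difference, at rank 2044.

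TNC, the tenascin-C gene, had a mean signal of 4.53, just under the median of all genes, and its groups overlapped. Its signal was 4.48 on control 1 and 4.08 on control 2. It was 5.05 with L. rhamnosus, 4.85 with S. thermophilus, 4.71 with L. plantarum, 4.63 with L. acidophilus and L. salivarius, 4.37 with Lc. lactis, 4.30 with L. fermentum and 4.25 with L. paracasei. The first 5 lay above both controls, and the last 3 lay between them. In the listed order of the samples, those 5 stand between control 1 and control 2, and those 3 follow control 2. No source names this order as a batch, and strain cannot be told apart from it. The bEV arrays averaged 4.60 ± 0.28 (SD, n = 8) and the controls 4.28 ± 0.28 (SD, n = 2), a difference of 0.32 or 1.25-fold at rank 732. No step between neighbours reached the control gap of 0.40. The mean difference was 0.12 from control 1 and 0.52 from control 2. FN1 and TNC, both matrix genes, had different orders below L. rhamnosus: L. paracasei was second for FN1 and lowest for TNC.

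**Figure D2:**
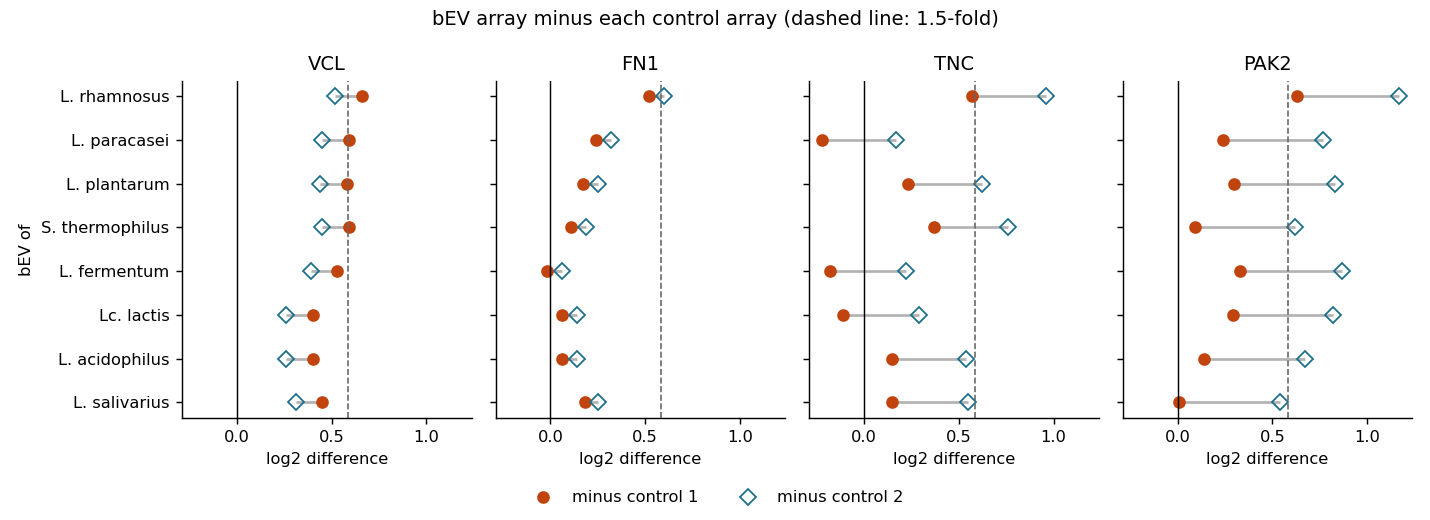
Difference in log2 signal (x axis) between each bEV array (y axis) and control 1 (filled circles) or control 2 (open diamonds), with a dashed line at 1.5-fold. VCL and FN1 shift little with the choice of control, whereas all TNC and PAK2 values are larger against control 2, and only PAK2 with L. rhamnosus has both marks past the line.

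Set against each control in turn, 1 of the 32 pairs of a gene and a bEV was 1.5-fold or more higher than both: PAK2 with L. rhamnosus, at 1.55-fold over control 1 and 2.24-fold over control 2. Among all genes, 1.35% were 1.5-fold or more above each control with L. rhamnosus, and 0.955% of all pairs of a gene and a bEV were. As the genes were chosen on this array, nothing is read from these shares. The other genes missed the cutoff with L. rhamnosus against 1 control each. TNC was 1.48-fold over control 1 and 1.95-fold over control 2. VCL was 1.58-fold and 1.43-fold, and FN1 was 1.44-fold and 1.51-fold, in the same order. A count at 1.5-fold therefore turned on the reference. It was 4 of 32 against the mean of both controls (1.98% of all pairs), 4 against control 1 (3.18%) and 11 against control 2 (3.08%). Of the 11, 7 were PAK2, which was 1.54-fold to 2.24-fold over control 2 with every bEV but that of L. salivarius (1.45-fold). At any size, 28 of the 32 pairs were above both controls (35.3% of all pairs), and 0 were below both. The share of all pairs below both was not counted. As the genes were picked with their differences from these controls known, nothing is read from either count.

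The bEVs of L. rhamnosus gave the highest signal of the 10 arrays for each of the 4 genes, on an array where 9.96% of all genes had their highest signal. As the genes were picked for high signals on this array, nothing is read from that share or from the leads given next. The lead over the next bEV was 0.07 for VCL, 0.20 for TNC, 0.28 for FN1 and 0.30 for PAK2. Only for FN1, which had the narrowest control gap of the 4 genes, did it exceed the gap between the controls. Below L. rhamnosus, the 4 genes shared no order, but no step between neighbours there exceeded the control gap for any of them. S. thermophilus was next for TNC, L. paracasei for FN1 and L. fermentum for PAK2. For VCL, S. thermophilus and L. paracasei were level at 9.37 after rounding. The lowest bEV array was L. salivarius for PAK2, L. paracasei for TNC and L. fermentum for FN1.

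Over the 8 bEV arrays, Pearson's r between the genes was 0.66 for VCL and FN1, 0.61 for FN1 and TNC, 0.61 for FN1 and PAK2, 0.55 for VCL and PAK2, 0.43 for VCL and TNC, and 0.27 for TNC and PAK2. No control enters these values. They describe arrays that share a scan format and include L. rhamnosus, the array on which the genes were picked. Without the L. rhamnosus array, a setting chosen after its values were seen, r over the other 7 was 0.41 for VCL and FN1, 0.20 for VCL and PAK2, 0.11 for VCL and TNC and for FN1 and TNC, −0.31 for FN1 and PAK2 and −0.58 for TNC and PAK2. Each r was thus lower without the L. rhamnosus array. As the genes were picked for high signals on that array, a drop is in part set by the choice. Nothing is read from it.

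Genes whose signals followed each of the 4 most closely were sought among the 2527 genes whose signal reached the median of all genes and spanned at least 1.5-fold, by Pearson's r over the 10 arrays. As the top of so many r values, each is high in part by the search itself. The r over the 8 bEV arrays alone uses arrays of the same search, so it is no separate check. For VCL they were R3HDM2, MIR181A1HG, GARS1 (glycyl-tRNA synthetase) and PTPDC1, with r of 0.95, 0.95, 0.95 and 0.93. R3HDM2 was 7.41 and 7.43 on the controls and 7.65 to 8.07 on the bEV arrays, and its r over the 8 bEV arrays alone was 0.94. That of the other VCL genes was lower there, 0.72 for MIR181A1HG, 0.76 for GARS1 and 0.55 for PTPDC1, so much of their likeness lay in the distance between bEV and control arrays.

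For PAK2, the closest gene was SH3D19, an adaptor with SH3 domains, at r = 0.98 over 10 arrays and 0.96 over the 8 bEV arrays. SH3D19 was 5.89 on control 1 and 5.66 on control 2, and 5.96 to 6.28 on the bEV arrays. It shared with PAK2 the lower control 2 and the highest value with L. rhamnosus, on a smaller scale (a mean difference of 0.32). FAN1 (a DNA repair nuclease), KIF1B (a kinesin motor) and MIB1 (a ubiquitin ligase of the Notch pathway) followed at 0.96, 0.96 and 0.94. All 3 also had a lower control 2 than control 1.

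For FN1, the closest genes were NBAS (Golgi to ER transport) at r = 0.93, ARRDC3 (an arrestin domain protein) at 0.92, and MTARC2 and CAMSAP1 (a microtubule minus end protein) at 0.91. ARRDC3 was 6.25 and 6.12 on the controls and reached 7.37 with L. rhamnosus. For TNC, they were GPR50 at 0.92, CIRBP (an RNA-binding protein induced by cold) at 0.91, TOP2B (DNA topoisomerase II beta) at 0.89 and GPC3 (a cell surface heparan sulfate proteoglycan) at 0.88. GPR50 was 7.98 and 7.60 on the controls and 7.64 to 8.35 on the bEV arrays, so its groups overlapped as those of TNC did.

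**Figure D3:**
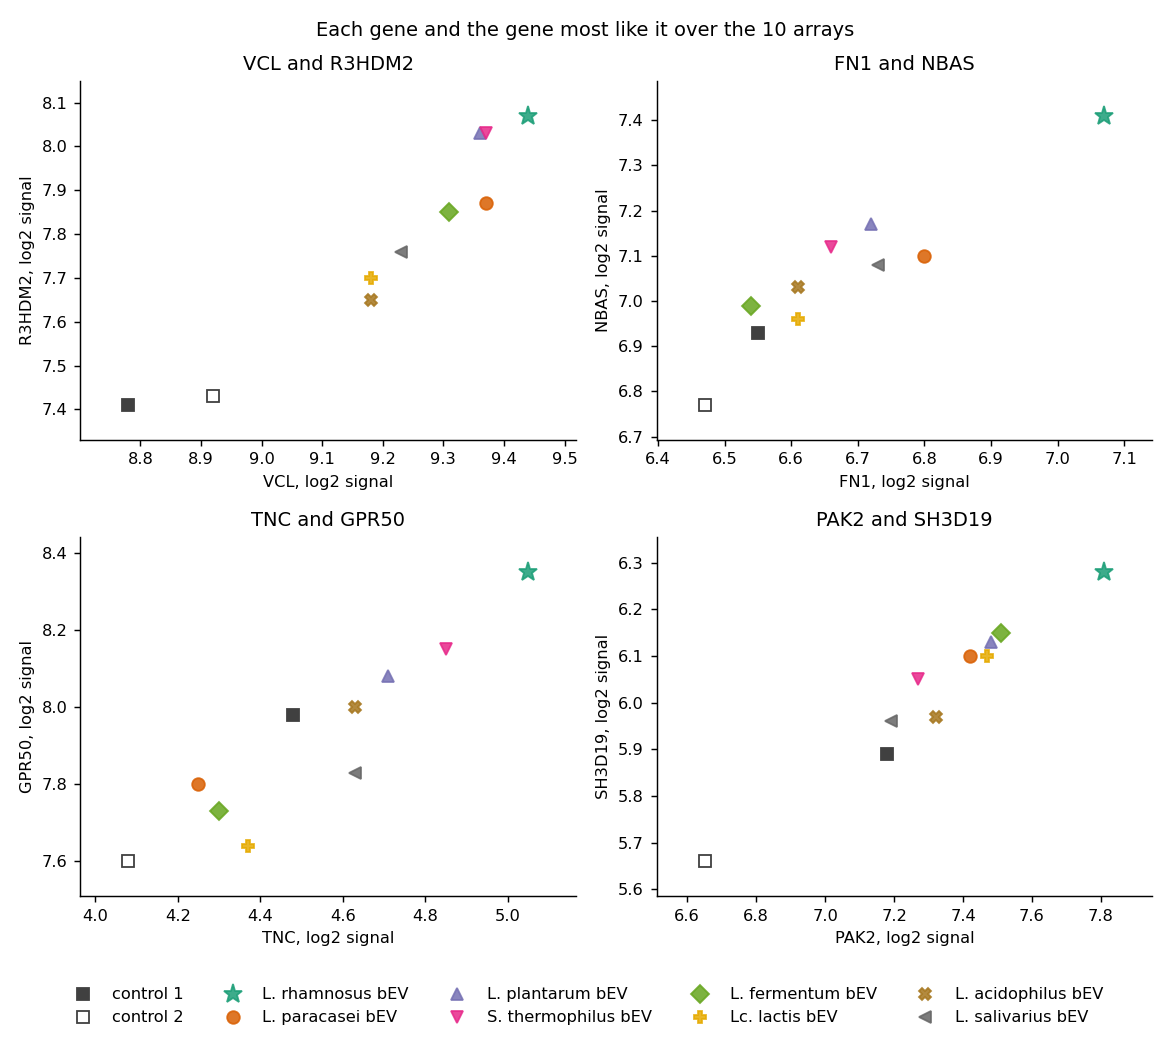
Log2 signal of each gene (x axes) against that of the gene with the highest r over the 10 arrays (y axes), 1 mark per array. The L. rhamnosus star is at the upper right of each panel, and for TNC and GPR50 control 1 lies among the bEV arrays.

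The other genes of adhesion were taken from 6 lists written by name with earlier results of these data known, 5 of which are described by group. Of 196 genes named, 109 were analysed here, 105 of them besides the 4 genes, and the rest have no probe set with a symbol here and were not analysed. These 105 had a median mean difference of 0.04, beside 0.00 over all genes. All 8 bEV arrays were above both controls for 8 of them (7.62%, against 5.11% of all genes) and below both for 4 (3.81%, against 4.07%). The first count depends on having both controls: with control 1 left out it was 22 (21.0%, against 15.5% of all genes), and with control 2 left out it was 21 (20.0%, against 14.5%). It also depends on the processing: it was 6 with quantile normalization and 6 with the mean of all probe sets of a gene. limma called 0 of the 105, and 0 of all 14884 genes (0.0%), at an adjusted p under 0.05 over the 8 bEV arrays, with a lowest adjusted p of 0.288. At an unadjusted p under 0.05, 6 of the 105 were higher and 3 lower with the bEVs, and 5.92% and 5.38% of all genes were. Single genes of the lists are thus given as values, without a call. LPP, PTK2, LIMS2, TGFB1I1, TEAD1 and AMOTL1 fall outside the rule for named genes and were picked with their values in view.

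The plaque list, with 24 genes besides VCL, had a median mean difference of 0.05. All bEV arrays were above both controls for 4, TLN1, ZYX, PTK2 and LPP (16.7%, beside 5.11% of all genes). They were below both for LIMS2 and TRIP6 (8.33%, beside 4.07%). PTK2 had a mean difference of only 0.11, and its lowest bEV array and control 1 both rounded to 5.59. LIMS2 had a signal of 3.35, below the median of all genes. TLN1, talin, to which vinculin binds, was 6.84 and 6.99 on the controls, and its bEV arrays were 7.02 at the lowest, 7.19 at the median and 7.30 at the highest. It differed by 0.25 ± 0.11 (SE; limma adjusted p = 0.399). ZYX, zyxin, which gathers where adhesions are under tension, was 6.60 and 6.51 on the controls, and 6.69, 6.86 and 7.02 (lowest, median and highest) with the bEVs. LPP, a relative of zyxin, had the largest difference of the list at 0.67 ± 0.16 (SE; limma adjusted p = 0.288), but at a signal below the median of all genes. LPP was 3.18 and 3.12 on the controls, and 3.53, 3.77 and 4.15 with the bEVs. TRIP6, also of the zyxin family, lay the other way, with 6.96 and 6.91 on the controls and 6.47, 6.63 and 6.89 with the bEVs. PXN, paxillin, another plaque adaptor, had overlapping groups, with 5.73 and 5.68 on the controls and 5.49 to 6.02 with the bEVs. Plaque genes thus lay on both sides of their controls.

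The list of integrins and other matrix receptors held 5 analysed genes of 25, the syndecans SDC1 to SDC4 and CD44, and none of the integrin subunits was analysed here. Its median mean difference was −0.16. SDC1, a heparan sulfate proteoglycan of the cell surface, was 5.11 and 5.27 on the controls, and 4.68, 4.84 and 4.94 (lowest, median and highest) with the bEVs. Its groups did not overlap, and it differed by −0.36 ± 0.10 (SE; limma adjusted p = 0.335). SDC2, another syndecan, was also below both controls on all 8 bEV arrays, with a mean difference of −0.21. Such a gene was 4.07% of all genes, and only 5 genes of this list were analysed. SDC4, the syndecan that binds fibronectin in focal adhesions, was 7.10 and 7.18 on the controls and 6.98 to 7.30 with the bEVs, and its groups overlapped. In the matrix list, 18 genes besides FN1 and TNC had a median mean difference of 0.02. Of these, 0 lay above or below both controls on all bEV arrays, beside 5.11% and 4.07% of all genes. Of the relatives of TNC, TNXB had a mean difference of −0.12 and TNN of −0.14, beside 0.32 for TNC. Both had overlapping groups, as TNC did, and TNN had a signal of 3.85, below the median of all genes.

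Of the other PAK kinase genes, PAK4 and PAK5 were analysed. PAK4 was 6.28 and 6.38 on the controls, and 5.97, 6.23 and 6.58 (lowest, median and highest) with the bEVs, a mean difference of −0.07. PAK5, at a signal below the median of all genes, was 3.44 and 3.47 on the controls, and 3.33, 3.43 and 3.69 with the bEVs, a mean difference of 0.02. Both had overlapping groups.

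**Figure D4:**
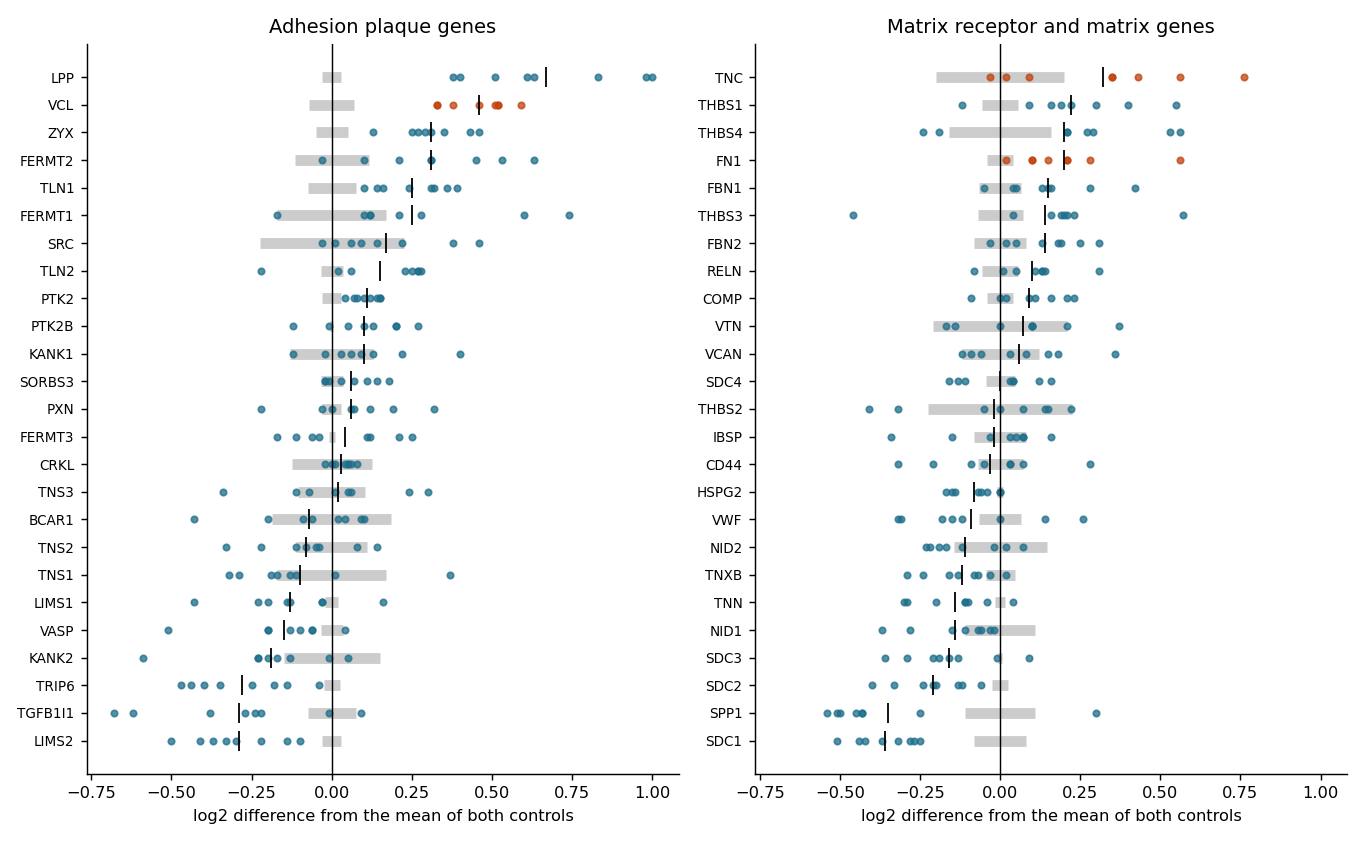
Difference in log2 signal from the mean of both controls (x axis) for the analysed genes of the plaque list and of the matrix receptor and matrix lists (y axes). Circles are the 8 bEV arrays (orange for VCL, FN1 and TNC), vertical ticks are their means, and grey bars span the controls. LPP and VCL have the highest means among plaque genes and TNC (0.32) in the other panel, where FN1 (0.20) lies among its neighbours and SDC1 (−0.36) is lowest.

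The lists of actin and SRF genes and of YAP and TEAD genes had median mean differences of 0.02 over 14 genes and 0.06 over 17. VCL is itself counted among SRF targets. Of the 14 other genes of that list, 0 were above both controls on all bEV arrays, beside 5.11% of all genes. With so few genes, nothing is read from that count. In the YAP and TEAD list, TEAD1 (a DNA-binding partner of YAP) and AMOTL1 lay above both controls on all bEV arrays (11.8% of 17 genes). TEAD1 was 7.75 and 7.77 on the controls and 7.85 to 8.13 with the bEVs. CCN2, which encodes connective tissue growth factor, stood out on the L. rhamnosus array at 6.93, followed by L. paracasei at 6.43. Its other bEV arrays were 5.84 to 6.12, and its controls were 5.47 and 6.09. With L. rhamnosus, CCN2 and LPP were the 2 of the 105 list genes that were 1.5-fold or more above each control (1.90%, beside 1.35% of all genes). LPP also passed with L. fermentum (0.779% of all genes), L. paracasei (1.34%) and Lc. lactis (0.665%). EGR1, an early growth response factor, passed with L. acidophilus alone (0.752% of all genes), at 6.26 against 5.35 and 5.20 on the controls. TGFB1I1, a plaque protein related to paxillin, was 1.5-fold or more below each control with L. plantarum (1.28% of all genes), the only list gene below with any bEV.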

How the data were processed

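The authors deposited log2 signals per probe set for 10 arrays of HEK293T cells. The labels name MAS5 with no version, the methods name the GeneChip Command Console Software, and how arrays were normalized was not given in the sources used here. Values were used as deposited, with 0 unmapped value columns. Of 53617 probe sets, 16098 carry 1 gene symbol from the platform table and 37519 none here, which gives 14884 genes. For 779 genes with several probe sets, the brightest on average was taken. VCL, FN1, TNC and PAK2, the gene lists and the rule for named genes were chosen with earlier results of these data known. The rule takes the 4 genes, 22 of their receptors and partners (9 analysed), the 3 genes of each list with the largest mean difference among those reaching the median signal, and the 4 genes most like each of the 4. The 4 genes were in the fit over all genes described next, but no p is given for them. Of the 6 lists, 1 is not reported here by itself. limma (version 3.58.1 in R 4.3.3) compared 8 bEV arrays with 2 controls over all genes (Benjamini-Hochberg adjustment, 8 residual degrees of freedom). It treated the bEVs as samples of 1 condition. It was tested on simulated data, with planted shifts larger than any mean difference of the adhesion lists, so smaller shifts were not checked. Its p-values reflect the spread between arrays, which may be technical. Among the bEV arrays that spread also holds differences of strain and dose, not a spread between replicates. The number of arrays limits the precision. Alternatives were each array left out, quantile normalization, median centring, the mean of probe sets, a 2-fold cutoff, each control or their mean as reference, all probe sets, the 7442 brighter genes, a trended robust variance and bEV arrays alone. Promoters of 4 of 4 genes came from RefSeq (GRCh38.p14). Python 3.11.15, numpy 2.4.6, pandas 2.3.3 and matplotlib 3.10.9 were used.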

Additional observations from a re-analysis of the deposited data

How the results depend on the processing

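The mean differences of VCL, FN1, TNC and PAK2 kept their direction under every alternative run. As the genes were picked with these differences known, nothing is read from that. The mean of probe sets could not move them, since each gene has 1 probe set. With 1 array left out, the mean differences ranged from 0.39 to 0.53, 0.15 to 0.24, 0.12 to 0.52 and 0.25 to 0.79, respectively. Both ends for VCL, TNC and PAK2 were set by a control. The count of pairs of a gene and a bEV at 1.5-fold or more above each control, 1 of 32, ranged from 0 to 11 with 1 array left out. It was 11 without control 1, 4 without control 2, 0 of 28 without L. rhamnosus, 0 at 2-fold or more, and 4 against the mean of both controls. limma called 0 genes over the 8 bEVs, from 0 to 2 with 1 array left out (2 without control 2) and 4 over all probe sets (4746 at an unadjusted p under 0.05). Adhesion list genes with all bEV arrays above both controls numbered 8, from 8 to 22 with 1 array left out, 22 without control 1 and 21 without control 2, since 1 control is easier to exceed than both. They numbered 6 with quantile normalization, 6 with the mean of all probe sets of a gene, and 7 of 69 among the brighter genes. Quantile normalization moved the FN1 difference with L. paracasei to 0.21, and the causes of the other changes were not tested. No paired analysis was possible because only the controls carry replicate numbers. With 1 array per bEV, differences between strains have no replicate check.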
